A study of Homo sapiens with 8 samples.

Results

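ICAM1 and 9 genes of the nuclear factor kappa B (NF-kB) pathway were described in HCT116, a human colorectal cancer cell line, with and without interferon-gamma (IFN-γ). They were taken by symbol from the deposited count table, where ICAM1, TNFAIP3, NFKBIA, NFKB1, NFKB2, RELB, TRAF1, BIRC3, CXCL8 and CXCL1 are 10 of 40295 gene identifiers. The study compared wild-type HCT116 with an HCT116 line in which CRISPR-Cas9 knock-in introduced E33Q in MED12, part of the kinase module of Mediator. Each line was sequenced untreated (0 h) and after 24 h with 5 ng/ml IFN-γ, with 2 libraries in each of the 4 groups, which the submitters describe as biological replicates. RNA was total RNA depleted of rRNA. A single knock-in line is named, so E33Q and any other difference between the lines cannot be told apart. Untreated cells are labelled 0 h and treated cells 24 h, so time and IFN-γ cannot be told apart either.

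In background terms, NF-kB is a family of dimeric transcription factors built from p50 (from NFKB1), p52 (from NFKB2), RelA, RelB and c-Rel. IkB proteins hold the dimers in the cytoplasm until receptors of the tumour necrosis factor and interleukin families set off IkB kinase, and many of the genes then induced, NFKBIA and TNFAIP3 among them, shut the pathway off again. Promoters of many IFN-γ target genes carry gamma-activated sites (GAS). ICAM1, the intercellular adhesion molecule that leukocyte integrins bind, is known as a target of both NF-kB and IFN-γ.

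Promoter sequences of the members were searched for kB and interferon-response sites. RefSeq promoter windows (GRCh38.p14, the 250 bases before each start) matched 9 of the 10 members, in 14 windows. Searched on both strands, a GAS (TTCNNNGAA) stood in 1 of the 14 windows, that of ICAM1, and in 6.57% of all 35116 promoters. By gene that was 1 of 9 members and 8.09% of genes. The interferon-stimulated response element core was in 0 of the 14 windows and 3.02% of promoters. The kB decamer consensus (GGG, a purine, any pair of bases, a pair of pyrimidines, CC) was in 7 of the 14 windows, belonging to 6 members, and in 9.96% of promoters. Counted by gene, at least 1 window held it in 6 of 9 members and in 11.8% of 27305 genes. The kB form GGAANTTCC, which can overlap the decamer, was in 5 of the 14 windows and 0.826% of promoters. At least 1 of these kB matches was in 8 of 9 members, with none in the windows of TRAF1. A match is a description of the letters and not a measured binding site. The ICAM1 kB match began 186 bases before the RefSeq start and the GAS match 75 bases before it. Both are shown first, followed by 1 kB stretch for each of 5 other members, in 30 bases on the gene's strand with the match in capitals. In NFKB2 and CXCL1 the capitals join 2 overlapping decamer matches. Their positions are chr19:10270923-10270952, chr19:10271034-10271063, chr14:35404811-35404840 (minus strand), chr4:102501300-102501329, chr10:102394461-102394490, chr4:73740467-73740496 and chr4:73869304-73869333.
ICAM1 kB: tgctttagcttGGAAATTCCggagctgaag
ICAM1 GAS: aggcgcgaggtTTCCGGGAAagcagcaccg
NFKBIA kB: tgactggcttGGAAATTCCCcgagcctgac
NFKB1 kB: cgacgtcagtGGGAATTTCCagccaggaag
NFKB2 kB: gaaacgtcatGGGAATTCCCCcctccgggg
CXCL8 kB: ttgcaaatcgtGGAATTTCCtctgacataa
CXCL1 kB: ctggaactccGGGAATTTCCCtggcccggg
The core of the ICAM1 kB match, GGAAATTCC, is also within that of NFKBIA.

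Libraries held 20901909 to 28045842 estimated counts, and levels are given as CPM, counts relative to the library total after edgeR's TMM scaling. Epithelial markers were present in all 8 libraries, with KRT8 at 1440 to 3610 CPM and EPCAM at 115 to 217 CPM, but VIL1 was at 0 to 0.16 CPM. Plasma cell markers, 10 of 10 with counts, summed to 349 and 393 CPM in untreated wild-type cells, 344 CPM in untreated knock-in library 2 and 272 CPM in treated knock-in library 2. In the other 4 libraries they summed to 1.14 to 2.05 CPM. CD79A, 1 of the 10, did not follow this pattern, at 0 in both untreated wild-type libraries and 0.229 and 0.204 CPM in the treated ones. Pan-leukocyte markers, 6 of 6 with counts, were at 33.7 to 42.3 CPM in the 4 libraries with plasma cell transcripts. They were at 3.71 to 13.6 CPM in the others. The T and NK cell list was at or under 1.1 CPM, with CD3D and NKG7 at 0, and the B cell list at or under 2.4 CPM, with MS4A1 at 0. Myeloid markers summed to at most 3.59 CPM, with CD163, FCGR3A and TYROBP at 0. The fibroblast list reached 7.58 CPM, with LUM at 0, and the endothelial list 2.67 CPM. In wild-type cells the plasma cell transcripts were in both untreated and neither treated library, so in that line they cannot be told apart from treatment. In bulk RNA, fewer cells of a type and less RNA per cell cannot be told apart. The share of ERCC spike-in RNAs was 0.11 to 0.141% of counts untreated and 0.228 to 0.271% treated, and the mean GC content of the counts was 46.2 to 47.6% untreated and 48.9 to 49.1% treated.

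ICAM1 (ENSG00000090339, GRCh38 chr19:10270835-10286615, plus strand) rose strongly in both lines and was higher in the knock-in line in both states. Its level was 4.60 and 4.96 CPM in untreated wild-type and 40.13 and 41.43 CPM treated in wild-type cells. In knock-in cells it was 12.70 and 11.28 CPM untreated and 137.1 and 138.1 CPM treated. The 4 groups stood fully apart, in the order untreated wild-type, untreated knock-in, treated wild-type and treated knock-in. Separate replicate values are common here: among all tested genes the groups did not overlap in 69.6% and 78.9% for the wild-type and knock-in responses, and 50.6% and 57.7% for the untreated and treated line differences. These levels rest on 99 to 3742 counts per library.

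The rise with IFN-γ was 8.53-fold in wild-type cells (3.09 ± 0.15 as a log2 fold change with its standard error, adjusted p = 3.87e-06 in edgeR's quasi-likelihood test, adjusted by Benjamini-Hochberg). In knock-in cells it was 11.5-fold (3.52 ± 0.14, edgeR adjusted p = 1.26e-06). ICAM1 was 2.51-fold higher in the knock-in than in the wild-type line without treatment (1.33 ± 0.15, edgeR adjusted p = 0.00139) and 3.37-fold higher with IFN-γ (1.75 ± 0.13, edgeR adjusted p = 0.000167). The knock-in rise minus the wild-type rise was 0.43 ± 0.20 on the log2 scale. This difference did not pass the test (edgeR unadjusted p = 0.0555, adjusted p = 0.688), so the responses are not shown to differ and not shown to be alike. Called means an adjusted p under 0.05 here, and by log2 fold change ICAM1 ranked 151 of the 2821 genes called higher in wild-type and 116 of 4356 in knock-in cells.

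ICAM1 stayed called under every alternative that could be fitted, 18 for the wild-type and 19 for the knock-in response, 18 for the untreated and 19 for the treated line difference. The log2 fold changes ranged from 2.30 to 3.15, from 2.80 to 3.61, from 1.01 to 1.54 and from 1.70 to 1.79 in that order. The difference between the responses ranged from 0.16 to 0.69 and was called in 0 of 17 alternatives. With the 2 knock-in libraries that hold plasma cell transcripts left out, the knock-in rise was 3.43 (edgeR adjusted p = 0.000367) and the treated line difference 1.75 (0.00719). The treated knock-in library without those transcripts stood at 137.1 CPM and the one with them at 138.1 CPM. Leaving out the libraries with plasma cell transcripts always means these 2 knock-in libraries below, and the untreated wild-type ones were kept. Each knock-in group then holds 1 library, so in that fit an effect of those transcripts and the loss of replicates cannot be told apart. GENCODE release 29 places 2 genes on the opposite strand over ICAM1 and 1 over TNFAIP3, which were not analysed here. Whether counting used strand is not given in the sources used here, so reads of ICAM1 or TNFAIP3 and of the overlapping genes cannot be told apart.

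**Figure D1:**
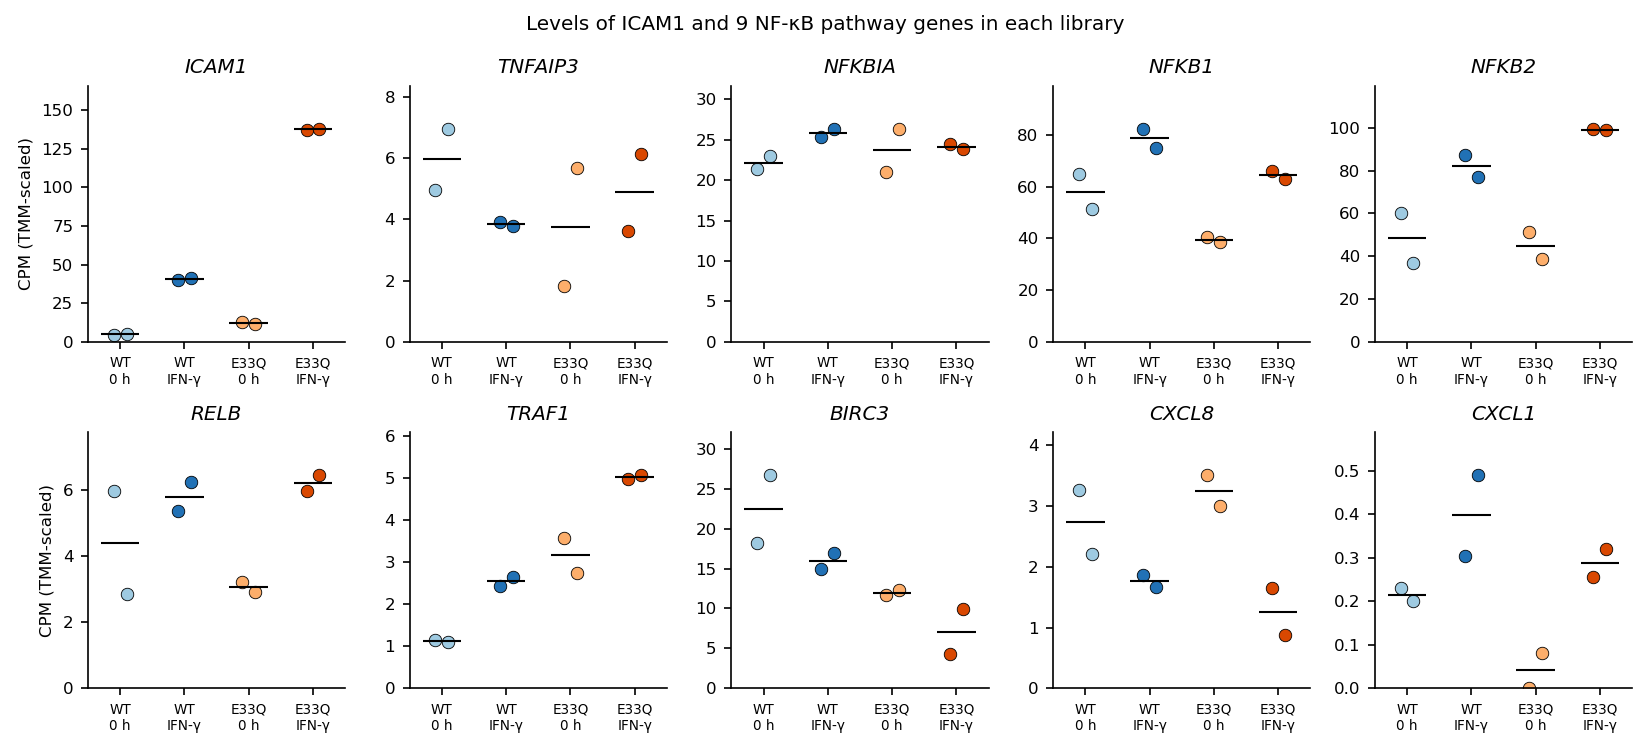
Level of each gene in each library, in CPM after TMM scaling, for untreated and IFN-γ-treated wild-type (WT) and MED12 E33Q knock-in cells. Points are libraries and bars are means of 2; each panel has its own axis from 0. ICAM1 reached 137.1 and 138.1 CPM treated in knock-in cells against 40.13 and 41.43 CPM treated in wild-type cells.

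The Rel protein genes had smaller fold changes than ICAM1, and their calls depended on how the libraries were scaled. Spike-in scaling sets the library sizes by the ERCC RNAs in place of TMM, and another alternative removes the trend of each library's counts on transcript GC content and length. NFKB2 (ENSG00000077150, chr10:102394110-102402529, plus strand), which encodes p100 and its product p52 of the non-canonical pathway, stood at 60.45 and 36.62 CPM untreated and 87.17 and 76.87 CPM treated in wild-type cells. In knock-in cells it stood at 51.53 and 38.53 CPM untreated and 99.67 and 98.85 CPM treated. Treated libraries were above untreated ones in both lines, and the untreated wild-type pair spread most. NFKB2 rose in wild-type (0.76 ± 0.23, edgeR adjusted p = 0.0283) and knock-in cells (1.14 ± 0.23, edgeR adjusted p = 0.0026). Scaled to the spike-ins the wild-type value was −0.08 (adjusted p = 0.88) and the knock-in value 0.61 (0.192). With the trend on GC content and length removed they were 0.16 (adjusted p = 0.269) and 0.12 (0.396). Leaving out untreated wild-type library 2 (0.44, edgeR adjusted p = 0.106) or either treated library of that line (0.66, 0.141, and 0.84, 0.0706) also ended the wild-type call. Leaving out the 2 knock-in libraries with plasma cell transcripts ended the knock-in call (0.95). NFKB2 was not called between the lines, at −0.11 untreated and 0.28 with IFN-γ (edgeR adjusted p = 0.8 and 0.636).

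NFKB1 (ENSG00000109320, chr4:102501329-102617302, plus strand) encodes p105 and its product p50. Its level was 64.73 and 51.25 CPM untreated and 82.40 and 75.07 CPM treated in wild-type cells, and 40.55 and 38.41 CPM untreated and 66.12 and 62.91 CPM treated in knock-in cells. Treated and untreated libraries did not overlap in either line, and the knock-in pair was below the wild-type pair in both states. NFKB1 rose in wild-type (0.44 ± 0.15, edgeR adjusted p = 0.0406) and knock-in cells (0.71 ± 0.15, edgeR adjusted p = 0.00316). The wild-type rise was called in 7 of 18 alternatives. Its value turned to −0.37 under spike-in scaling (adjusted p = 0.273), and was 0.14 with the GC and length trend removed (0.329). It also lost its call with DESeq2's size factors (0.40, edgeR adjusted p = 0.0504) and with only the groups compared in the fit (0.119). Of the 8 fits with 1 library left out, only that without untreated wild-type library 1 kept the wild-type call. The others gave 0.28 without untreated wild-type library 2 (adjusted p = 0.112), 0.37 and 0.51 without treated wild-type libraries 1 and 2 (0.204 and 0.0978), and adjusted p of 0.0541 to 0.081 without a knock-in library. In knock-in cells the value was 0.18 under spike-in scaling (adjusted p = 0.633), 0.36 with the trend removed (0.0234) and 0.71 without the libraries with plasma cell transcripts (0.0979). The untreated line difference was −0.56 ± 0.15 and narrowly missed the threshold (edgeR adjusted p = 0.0505). It was called with DESeq2, without a filter on low counts, with the stricter filter, with the trend removed (−0.49, 0.0127) and without untreated wild-type library 2 (−0.71, 0.00547). With IFN-γ the difference was −0.29 (edgeR adjusted p = 0.394).

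RELB (ENSG00000104856, chr19:45001430-45038198, plus strand), the partner of p52, was low. Its level was 5.98 and 2.86 CPM untreated and 5.38 and 6.25 CPM treated in wild-type cells, which overlap, and 3.23 and 2.91 CPM untreated and 5.97 and 6.46 CPM treated in knock-in cells, which do not. It was not called in wild-type cells (0.39 ± 0.35, edgeR adjusted p = 0.404) and rose in knock-in cells (1.02 ± 0.35, edgeR adjusted p = 0.0352). The knock-in value was 0.49 under spike-in scaling (adjusted p = 0.438), 0.04 with the trend removed (0.927) and 0.88 without the libraries with plasma cell transcripts (0.299). Leaving out the second treated wild-type library (adjusted p = 0.0509) or any 1 knock-in library (0.0915 to 0.143) also ended the call. Leaving out untreated wild-type library 1 gave a called wild-type rise of 0.93 (edgeR adjusted p = 0.0332), and leaving out untreated wild-type library 2 gave −0.04 (0.931). Between the lines RELB was at −0.53 untreated (edgeR adjusted p = 0.381), but −0.96 and called without untreated wild-type library 2 (0.0307), and at 0.10 with IFN-γ (0.936).

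Among their partners, RELA was at 28.69 and 22.14 CPM untreated and 53.33 and 36.82 CPM treated in wild-type cells, and at 16.93 and 11.33 CPM untreated and 38.54 and 37.26 CPM treated in knock-in cells. It rose in wild-type (0.83, edgeR adjusted p = 0.0239) and knock-in cells (1.43, 0.00118). These values were 0.03 and 0.89 under spike-in scaling, neither called, and 0.28 (not called) and 0.56 (edgeR adjusted p = 0.0414) with the trend removed. Leaving out untreated wild-type library 2 (0.65, edgeR adjusted p = 0.126) or the first treated one (0.53, 0.187) ended the wild-type call. Between the lines RELA was at −0.85 untreated (edgeR adjusted p = 0.0627) and −0.25 with IFN-γ (0.691), neither called. The untreated difference was called with DESeq2 (−0.83, adjusted p = 0.0144), without a filter (edgeR adjusted p = 0.00053) and with the stricter filter (0.0492). It was also called with the replicate number as a block (edgeR adjusted p = 0.0172). Under spike-in scaling it was −1.20 and with the trend removed −0.58, neither called. REL, which encodes c-Rel, was at 18.75 to 27.31 CPM over all 8 libraries and was not called in either response.

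The inhibitors of the pathway, NFKBIA and TNFAIP3, did not pass the test in any comparison. NFKBIA (ENSG00000100906, chr14:35401511-35404749, minus strand) encodes IkB-alpha. It was at 21.33 and 23.00 CPM untreated and 25.33 and 26.37 CPM treated in wild-type cells, and at 21.00 and 26.34 CPM untreated and 24.47 and 23.82 CPM treated in knock-in cells. All 8 values lay between 21.00 and 26.37 CPM. Its response was 0.22 ± 0.16 in wild-type (edgeR adjusted p = 0.305) and 0.03 in knock-in cells (0.908), and its line differences were 0.10 untreated (0.749) and −0.10 with IFN-γ (0.846).

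TNFAIP3 (ENSG00000118503, chr6:137867188-137883312, plus strand) encodes A20, a ubiquitin-editing enzyme that dampens signalling to IkB kinase. Its level was 4.96 and 6.96 CPM untreated and 3.93 and 3.80 CPM treated in wild-type cells. In knock-in cells it was 1.84 and 5.66 CPM untreated and 3.63 and 6.14 CPM treated, so the pairs of that line spread widely and overlapped. The 4 libraries with plasma cell transcripts held the 4 highest TNFAIP3 values, 4.96 to 6.96 CPM, against 1.84 to 3.93 CPM in the other 4, and the part of those transcripts in the TNFAIP3 level was not tested. The response was −0.63 ± 0.48 in wild-type (edgeR adjusted p = 0.338) and 0.37 in knock-in cells (0.568). The knock-in value was 1.41 and called without untreated knock-in library 2 (edgeR adjusted p = 0.044), −0.21 without library 1 of that group (0.716), −0.16 under spike-in scaling (0.841) and −0.02 once the trend was removed (0.986). The line differences were −0.65 untreated (edgeR adjusted p = 0.426) and 0.34 with IFN-γ (0.819).

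**Figure D2:**
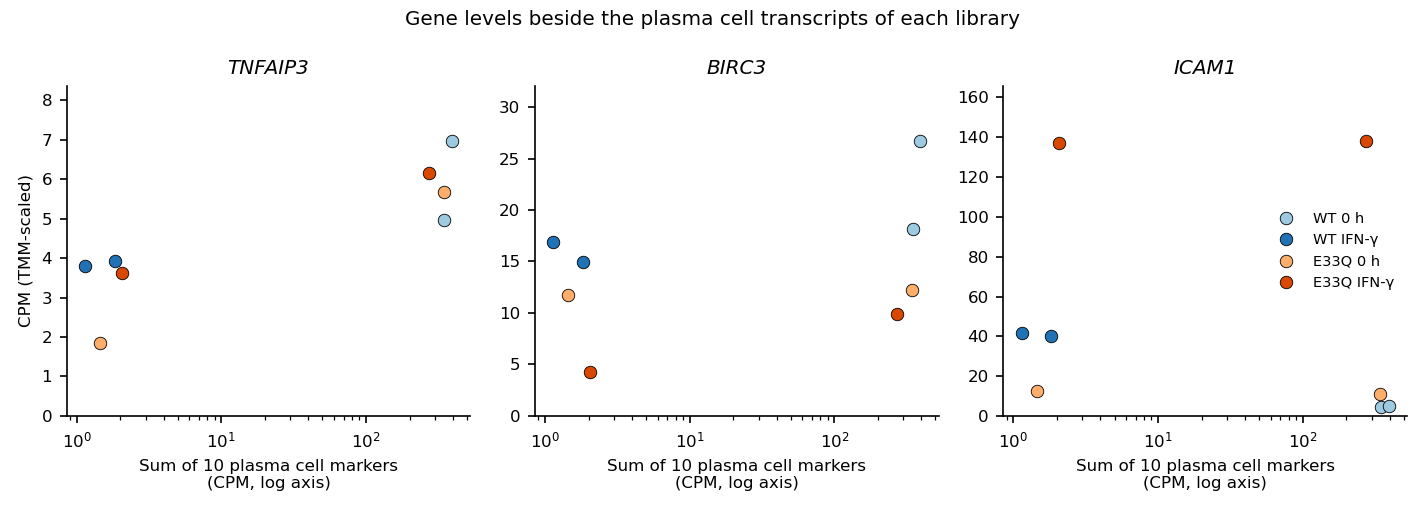
Level of TNFAIP3, BIRC3 and ICAM1 in each library (CPM after TMM scaling, axis from 0) against the summed CPM of 10 plasma cell markers (log axis); each point is a library, coloured by group. The 4 libraries at 272 to 393 CPM of plasma cell markers held the 4 highest TNFAIP3 values, while ICAM1 in treated knock-in cells was 137.1 CPM at 2.05 CPM of markers and 138.1 CPM at 272 CPM.

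TRAF1 and BIRC3 act at tumour necrosis factor receptors. TRAF1 rose in wild-type cells, and BIRC3 had negative values in every comparison that did not pass the test. TRAF1 (ENSG00000056558, chr9:120902393-120929173, minus strand) is an adaptor of those receptors. It was at 1.15 and 1.10 CPM untreated and 2.44 and 2.65 CPM treated in wild-type cells, and at 3.57 and 2.75 CPM untreated and 4.98 and 5.07 CPM treated in knock-in cells. The 4 groups did not overlap and had the order untreated wild-type, treated wild-type, untreated knock-in and treated knock-in, at 22 to 136 counts per library. TRAF1 rose in wild-type cells (1.17 ± 0.34, edgeR adjusted p = 0.0238), and its knock-in value was 0.67 ± 0.32 (0.11). It was higher in the knock-in line without treatment (1.48 ± 0.34, edgeR adjusted p = 0.0318), and the value with IFN-γ was 0.98 ± 0.32 (0.176).

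The wild-type call of TRAF1 was lost under spike-in scaling (0.37, edgeR adjusted p = 0.501), with the trend removed (0.54, 0.258) and with only the groups compared in the fit (0.117). It was also lost without any 1 wild-type library (adjusted p = 0.0514 to 0.0877) or without either treated knock-in library (0.0538 and 0.0533). The untreated line difference was lost under spike-in scaling (1.15, edgeR adjusted p = 0.102), with limma-voom (1.43, 0.0587), with only the groups compared (0.125) and in 7 of 8 fits with 1 library left out (0.0536 to 0.127), the exception being untreated wild-type library 2. It was 1.72 with the trend removed (edgeR adjusted p = 0.00859).

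BIRC3 (ENSG00000023445, chr11:102317450-102339403, plus strand) encodes cIAP2, a ubiquitin ligase that limits apoptosis. It was at 18.20 and 26.70 CPM untreated and 14.99 and 16.94 CPM treated in wild-type cells, and at 11.70 and 12.27 CPM untreated and 4.29 and 9.89 CPM treated in knock-in cells. Treated values were under untreated ones in both lines, and knock-in values under wild-type ones in both states. None of these differences passed the test: −0.49 ± 0.33 for the wild-type response (edgeR adjusted p = 0.276), −0.76 ± 0.35 for the knock-in response (0.0942), −0.90 ± 0.34 for the untreated (0.125) and −1.17 ± 0.34 for the treated line difference (0.124). In treated knock-in cells the lower value, 4.29 CPM, was in the library without plasma cell transcripts, and their part in it was not tested.

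Without the 2 knock-in libraries that hold plasma cell transcripts BIRC3 was called, at −1.45 for the knock-in response (edgeR adjusted p = 0.0275) and −1.90 for the treated line difference (0.0473). Leaving out only treated knock-in library 2 gave −1.48 (edgeR adjusted p = 0.00687) and −1.90 (0.0287). The knock-in response was also called with DESeq2 (−0.83, adjusted p = 0.0421), with limma-voom (−0.90, 0.0488), without a filter (0.00534) and under spike-in scaling (−1.29, 0.016), but was 0.19 with the trend on GC content and length removed (0.719). The wild-type response was called under spike-in scaling (−1.27, edgeR adjusted p = 0.0146) and was 0.16 with the trend removed (0.757). The treated line difference was also called with DESeq2 (−1.18, adjusted p = 0.0247), without a filter (6.87e-05) and with the replicate number as a block (−1.25, 0.0409). The untreated line difference was called without a filter (−0.90, edgeR adjusted p = 0.00255) and with the trend removed (−1.14, 0.0388).

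Of the chemokines, which attract neutrophils through CXCR1 and CXCR2, CXCL8 was low and CXCL1 hardly detected. CXCL8 (ENSG00000169429, chr4:73740506-73743716, plus strand) was at 3.26 and 2.20 CPM untreated and 1.87 and 1.67 CPM treated in wild-type cells, and at 3.51 and 3.0 CPM untreated and 1.65 and 0.88 CPM treated in knock-in cells. In each line the treated pair was below the untreated pair. CXCL8 was not called in wild-type cells (−0.63 ± 0.44, edgeR adjusted p = 0.292) and fell in knock-in cells (−1.36 ± 0.45, 0.0286). That value was 0.04 with the trend removed (edgeR adjusted p = 0.962), −1.89 under spike-in scaling (0.0163) and −1.09 without the libraries with plasma cell transcripts (0.281). The call was also lost without untreated knock-in library 1 (−1.24, edgeR adjusted p = 0.113), untreated knock-in library 2 (−1.47, 0.0701) or treated knock-in library 2 (−0.98, 0.18). In wild-type cells spike-in scaling gave a called −1.45 (edgeR adjusted p = 0.0445). Between the lines CXCL8 was at 0.25 untreated (edgeR adjusted p = 0.763) and −0.48 with IFN-γ (0.68).

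CXCL1 (ENSG00000163739, chr4:73869393-73871242, plus strand), 126 kb from CXCL8, did not pass the filter on low counts and was not tested in the reported fit. In the wild-type line its counts were 5 and 4 untreated and 8 and 12 treated, and in the knock-in line 0 and 2 untreated and 7 and 8 treated. At 0 to 0.49 CPM no difference could be read. Its near-identical neighbours were as low, with CXCL2 at 4 to 18 and CXCL3 at 0 to 12 counts per library, and reads that they share may have been divided among them.

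Per kilobase of transcript, a scale on which genes can be compared, ICAM1 was the highest member only in treated knock-in cells. In untreated wild-type cells NFKB2 (15.7 CPM per kb), NFKB1 (15.0) and NFKBIA (14.4) were highest and did not differ beyond the spread of their libraries. BIRC3 followed at 5.17 CPM per kb, then CXCL8 (2.27), ICAM1 (2.1), RELB (1.94) and TNFAIP3 (1.56), neighbours whose libraries overlapped, and TRAF1 (0.262) and CXCL1 (0.196) were lowest. In untreated knock-in cells NFKBIA (15.4 CPM per kb), NFKB2 (14.5) and NFKB1 (10.2) were again the 3 highest, and ICAM1 came next at 5.27. In treated wild-type cells NFKB2 (26.4 CPM per kb) and NFKB1 (20.4) were highest, and ICAM1 (17.9) came next, ahead of NFKBIA (16.8). In treated knock-in cells it was the highest of the 10 at 60.5 CPM per kb, ahead of NFKB2 at 32.0.

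Counted over the 9 tested members, 4 were called higher and 0 lower in the wild-type response (ICAM1, TRAF1, NFKB2 and NFKB1), where 17.1% of all 16519 tested genes were called higher and 20.8% lower (37.9% in all). In the knock-in response 4 were called higher (ICAM1, NFKB2, RELB and NFKB1) and 1 lower (CXCL8), beside 26.4% and 25.8% of all genes (52.1% in all). Without treatment 2 members, ICAM1 and TRAF1, were called higher and 0 lower in the knock-in line (4.26% and 4.17% of all genes, together 8.43%), and with IFN-γ 1, ICAM1, higher and 0 lower (1.63% and 1.28%, together 2.91%). The median log2 fold change of the members was 0.39 in the wild-type and 0.67 in the knock-in response, against 0.08 and 0.12 over all tested genes. Between the lines it was −0.11 untreated and 0.10 treated, against −0.02 and −0.01. The comparisons share libraries, so these counts are not independent of each other.

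The difference between the responses was called by edgeR for 0 of the 9 members and 0 of all genes. At an unadjusted p under 0.05 it was 0 members and 1119 genes. DESeq2 called 4 genes and the fit without a filter 267, and neither called a member. Members called in 1 line and not in the other, TRAF1, RELB and CXCL8, are therefore not shown to respond differently.

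**Figure D3:**
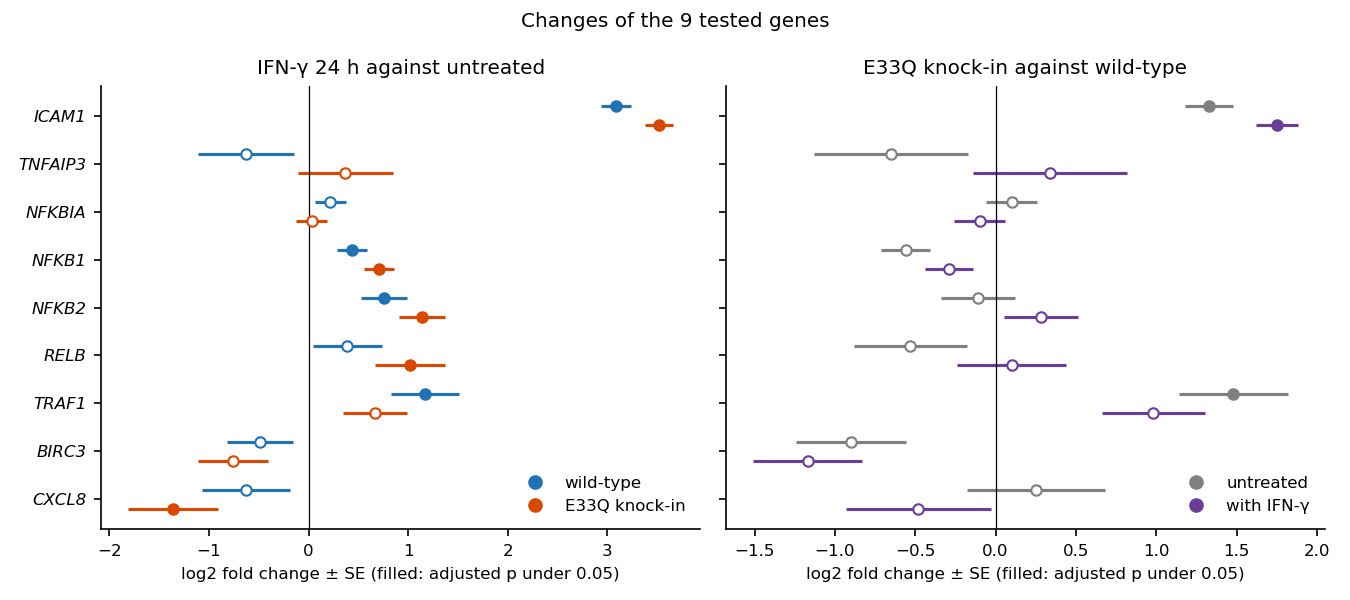
Log2 fold change with its standard error for the 9 tested genes: IFN-γ against untreated in each line (left) and knock-in against wild-type in each state (right), on separate horizontal axes. Filled points have an adjusted p under 0.05 (edgeR); ICAM1 is filled in all 4 comparisons, at 3.09, 3.52, 1.33 and 1.75.

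The composition of the libraries differed between treated and untreated cells, and the smaller member values depended on how this was handled. Under spike-in scaling the median gene's log2 fold change shifted by −0.80 in the wild-type and −0.53 in the knock-in response, −0.33 in the untreated and −0.06 in the treated line difference. Relative to that shift, the spike-in values of NFKB1 and NFKB2 in wild-type cells, −0.37 and −0.08, stood above the median of all genes, −0.72. On this scale 1 member was called higher (ICAM1) and 2 lower (BIRC3 and CXCL8) in each response, where 233 of 16519 genes were called higher and 6745 lower in the wild-type and 616 and 5476 in the knock-in response. Transcript GC content was 36.9 to 65.4% for the members, lowest in CXCL8 and BIRC3 (38.15%) and highest in RELB and NFKB2 (61.18%). The 2 low-GC members were those with negative values in both responses, and the 4 Rel and adaptor genes called higher in a response had 49.47% (NFKB1), 55.4% (TRAF1), 61.18% (NFKB2) and 65.43% (RELB). NFKBIA (53.64%) and TNFAIP3 (49.78%), called in neither response, lay above NFKB1. The median of all tested genes with a GC value was 49.7%. With the trend on GC content and length removed, ICAM1 (57.9% GC) kept 2.64 in wild-type and 2.80 in knock-in cells, 1 member was called in the wild-type response (ICAM1) and 2 in the knock-in response (ICAM1 and NFKB1). Whether the trend is technical was not tested.

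**Figure D4:**
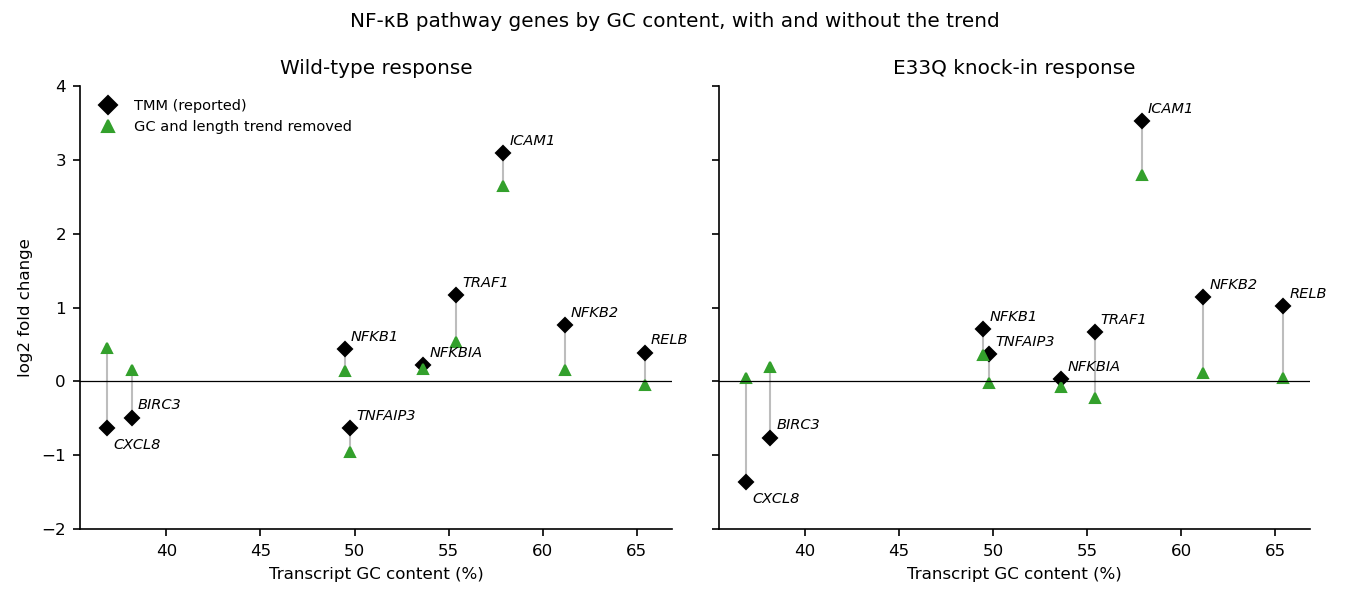
Log2 fold change of the 9 tested genes with IFN-γ against transcript GC content (%), in wild-type (left) and knock-in cells (right). Diamonds are TMM-scaled values and triangles are values after the trend on GC content and length was removed; ICAM1 went from 3.09 to 2.64 and from 3.52 to 2.80, and the triangles of all other genes lie between −0.96 and 0.54.

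**Figure D5:**
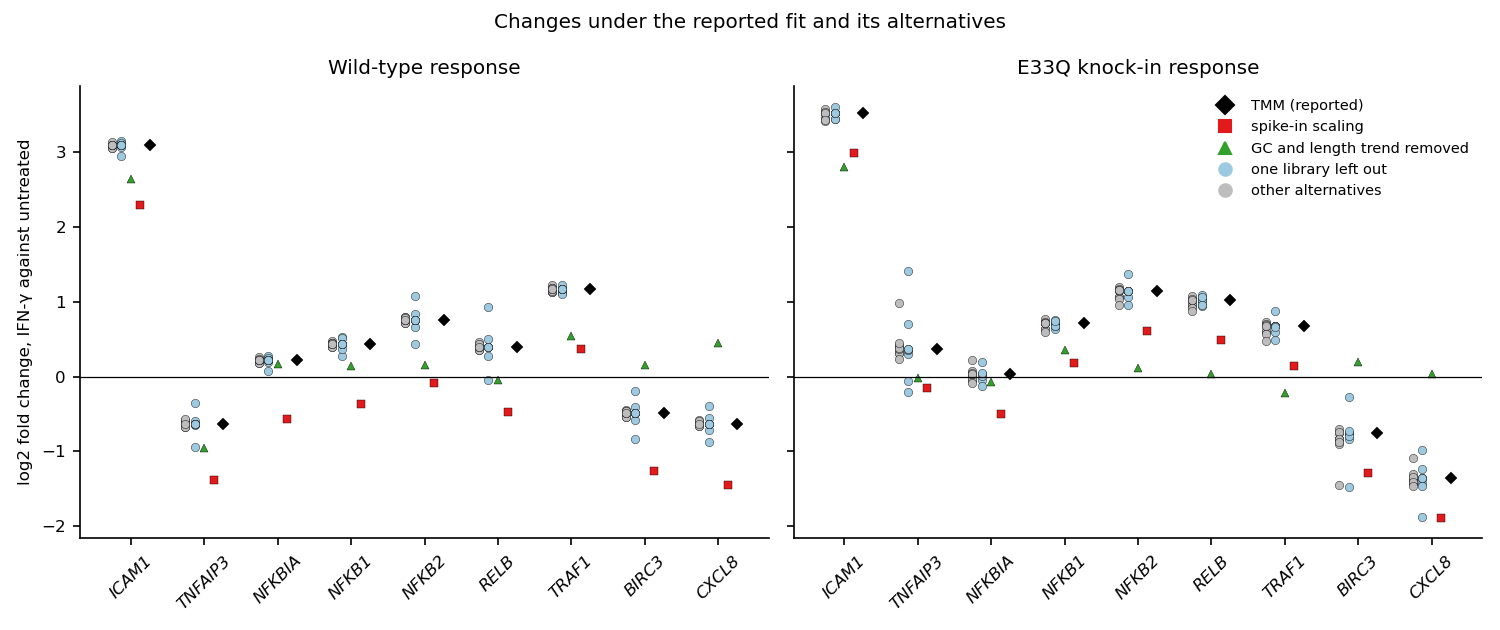
Log2 fold change of the 9 tested genes with IFN-γ in each line as reported (diamonds), under spike-in scaling (squares), with the GC and length trend removed (triangles), with 1 library left out and under the other alternatives (circles). ICAM1 lies between 2.30 and 3.15 in wild-type and between 2.80 and 3.61 in knock-in cells, apart from the other genes in every setting.

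The rest of the pathway was read from 6 lists that hold none of the members. The lists share some genes, so their counts are not independent. ICAM4, ICAM5 and VCAM1 are both on the target and the adhesion list. CXCL2, CXCL3, CXCL5 and CXCL6 are both on the target list and the CXCR1 and CXCR2 list. Each list count of the reported fit stands beside the shares of all tested genes in that fit. These were 17.1% called higher and 20.8% lower in the wild-type and 26.4% and 25.8% in the knock-in response. Counts under an alternative are not to be set against these shares, since the calls over all 16519 genes moved too. Spike-in scaling gave 233 higher and 6745 lower in the wild-type and 616 and 5476 in the knock-in response. Trend removal gave 2107 and 1843, and 2594 and 2308. With only the groups compared the wild-type counts were 2039 and 2765. Leaving out libraries also changed the calls over all genes. Of 19 tested receptors and ligands, 7 were called higher and 1 lower in the wild-type response and 8 and 2 in the knock-in response, with medians of 0.48 and 0.57. Spike-in scaling gave 1 higher and 6 lower in wild-type and 1 and 4 in knock-in cells. In the wild-type response 2 were called higher without either treated wild-type library and 3 with only the groups compared, and in the knock-in response 5 were without the libraries with plasma cell transcripts. TNF, on this list, was at 0 in all 8 libraries. TLR3, a receptor for double-stranded RNA, rose in wild-type (2.68 ± 0.15, edgeR adjusted p = 8.33e-06) and knock-in cells (2.36 ± 0.14, 1.55e-05). CD40, the receptor of CD40 ligand, rose in wild-type cells from 12.23 and 10.92 to 28.23 and 28.53 CPM (1.29, edgeR adjusted p = 0.000596), and it rose in knock-in cells by 1.09 (0.000511). The cytokine IL18 fell in both lines (−1.29, edgeR adjusted p = 0.000568, and −1.08, 0.000485), at −0.39 and −0.01 with the GC and length trend removed, the latter not called. The lymphotoxin receptor LTBR rose in wild-type (0.91, edgeR adjusted p = 0.0171) and knock-in cells (1.49, 0.000993), and so did the tumour necrosis factor receptor TNFRSF1A (0.61, 0.0421, and 1.17, 0.0014). Under spike-in scaling CD40 (0.48 and 0.56), LTBR (0.05 and 0.95) and TNFRSF1A (−0.23 and 0.64) were not called in either line, while TLR3 was at 1.88 and 1.83 and called in both. The wild-type call of LTBR was lost without either treated wild-type library (edgeR adjusted p = 0.0617 and 0.0848). That of TNFRSF1A was lost with the trend removed (0.41, edgeR adjusted p = 0.0708), with only the groups compared (0.0684) and without untreated wild-type library 2 (0.34, 0.161) or any 1 treated library (0.0668 to 0.141). The knock-in rise of TNFRSF1A was also not called without the libraries with plasma cell transcripts (1.02, edgeR adjusted p = 0.051). Between the lines TNFSF12, the cytokine TWEAK, was higher in the knock-in line untreated (1.23, edgeR adjusted p = 0.0228) and treated (1.46, 0.0155), and the death receptor TNFRSF21 lower untreated (−0.91, 0.00902). Neither line difference of TNFSF12 was called under spike-in scaling (0.87 and 1.41). The untreated one was not called without any 1 knock-in library, and the treated one without any 1 treated library. TNFRSF21 was not called without untreated knock-in library 1 (−0.82, edgeR adjusted p = 0.0618).

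Of 31 adaptors, kinases and ubiquitin enzymes, 10 were called higher and 8 lower in the wild-type and 17 and 9 in the knock-in response. The kinase adaptor TANK fell in wild-type (−1.69, edgeR adjusted p = 0.000183) and knock-in cells (−1.66, 0.000144), and so did BIRC2, the close relative of BIRC3 (−1.36, 0.000561, and −1.65, 0.000177). With the trend removed TANK was at −0.61 and −0.30 and BIRC2 at −0.66 and −0.67, all called. The Toll-like receptor adaptor MYD88 rose in wild-type (1.30, edgeR adjusted p = 0.000385) and knock-in cells (1.16, 0.000224), at 0.49 and not called and 0.63 and called under spike-in scaling. RNF31, a subunit of the linear ubiquitin ligase, rose in wild-type (1.27, edgeR adjusted p = 0.000927) and knock-in cells (1.83, 0.000174). It was at 0.63 and 0.78 with the trend removed, and the wild-type value was 0.45 and not called under spike-in scaling. Under spike-in scaling the list's wild-type count was 0 higher and 10 lower and the knock-in count 3 and 10. With the trend removed they were 5 and 2 and 6 and 2. The wild-type count was 4 and 4 without treated wild-type library 2 and 5 and 5 without library 1 of that group. It had 6 higher and 7 lower without untreated wild-type library 2 or either treated knock-in library, and 5 and 7 with only the groups compared. The knock-in count was 4 and 3 without the libraries with plasma cell transcripts. Between the lines the scaffold CARD10 (−1.21, edgeR adjusted p = 0.0296), the kinase IRAK1 (−0.98, 0.0355) and TANK (−0.62, 0.0354) were lower in untreated knock-in cells. The protease MALT1 was lower in treated knock-in cells (−0.70, edgeR adjusted p = 0.0375). Each of these 4 calls was lost in 6 of 8 fits with 1 library left out. Those of CARD10 and IRAK1 stayed without untreated wild-type library 2 or untreated knock-in library 1, and those of TANK and MALT1 without either untreated wild-type library.

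Of 17 Rel, IkB and regulator genes beyond the members, 3 were called higher and 1 lower in the wild-type and 10 and 2 in the knock-in response. ZFP36, which marks inflammatory mRNAs for decay, rose in wild-type (1.13, edgeR adjusted p = 0.00614) and knock-in cells (1.55, 0.00083), at 0.32 and not called and 1.03 and called under spike-in scaling. TNFAIP8 fell in wild-type (−0.95, edgeR adjusted p = 0.00216) and knock-in cells (−1.31, 0.000279), but was −0.09 and −0.22 and not called with the trend removed. PDLIM2, a ubiquitin ligase for RelA, was higher in treated knock-in than wild-type cells (0.82, edgeR adjusted p = 0.0318), a call lost under spike-in scaling (0.77, 0.238) and on leaving out any 1 library except an untreated wild-type one. Under spike-in scaling the list's counts were 0 higher and 7 lower in the wild-type and 1 and 4 in the knock-in response. The wild-type count was 6 higher and 2 lower without untreated wild-type library 1. The knock-in count of 10 higher became 4 without untreated knock-in library 2, 5 without either treated knock-in library, 4 with the trend removed and 2 without the libraries with plasma cell transcripts.

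Among 41 other NF-kB target genes, 27 were tested, and IL6, CCL2, CXCL5, CXCL6 and SELE were at or near 0. In the wild-type response 6 were called higher and 0 lower, and in the knock-in response 10 and 1, against 1 and 7 and 2 and 2 under spike-in scaling. The wild-type count was 2 higher without either treated wild-type library and 3 with only the groups compared. The knock-in count was 5 or 6 higher without untreated knock-in library 2 or either treated one, and 3 without the libraries with plasma cell transcripts. CSF1, the macrophage growth factor, was at 2.80 and 2.41 CPM untreated and 27.39 and 26.21 CPM treated in wild-type cells, and at 2.17 and 1.89 CPM untreated and 32.71 and 27.80 CPM treated in knock-in cells. Its rise was 3.36 ± 0.20 in wild-type (edgeR adjusted p = 1.3e-05) and 3.90 ± 0.20 in knock-in cells (5.63e-06), and 2.56 and 3.37 under spike-in scaling. The chemokine CXCL16 rose by 1.16 (edgeR adjusted p = 0.00294) and 1.65 (0.00035), and the wild-type value was 0.32 and not called under spike-in scaling. TNFAIP2 rose by 0.72 (edgeR adjusted p = 0.019) and 1.21 (0.000962), but the values were −0.10 and 0.67 under spike-in scaling, and −0.01 and 0.04 once the trend was removed, none of them called. That wild-type rise was not called when untreated wild-type library 2 (0.54, edgeR adjusted p = 0.0959) or either treated library was left out (0.0826 and 0.0831).

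Between the lines, the urokinase gene PLAU was lower in knock-in cells untreated (−1.33, edgeR adjusted p = 0.00276) and treated (−1.35, 0.00307). Its treated call was lost without treated knock-in library 1 (−1.30, edgeR adjusted p = 0.0549) and without the libraries with plasma cell transcripts (−1.40, 0.065). The cytokine LIF was lower untreated (−0.98, edgeR adjusted p = 0.0168), but not called without either untreated knock-in library (0.051 and 0.116). IL32 was higher treated (1.42, edgeR adjusted p = 0.0286), a call lost on leaving out any 1 library except an untreated wild-type one.

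ICAM1 lies in a cluster with ICAM4 (352 nt away) and ICAM5 (1459 nt beyond ICAM4). Of 11 tested adhesion genes, 3 were called higher and 2 lower in the wild-type and 4 and 2 in the knock-in response. Under spike-in scaling these counts were 0 and 5 and 0 and 4, and with the trend removed 1 and 2 and 1 and 3. The wild-type count was 1 and 1 without untreated wild-type library 2 and 1 and 2 with only the groups compared. In knock-in cells 1 or 2 were called higher on leaving out any 1 library of that line, and 1 without both libraries with plasma cell transcripts. ICAM5, at 12.18 and 7.11 CPM in untreated wild-type and 4.12 and 3.16 CPM in untreated knock-in cells, was lower in the knock-in line (−1.41, edgeR adjusted p = 0.0227). Leaving out untreated wild-type library 1 (−0.98, edgeR adjusted p = 0.0913) or either untreated knock-in library (0.0631 and 0.146) ended that call. In knock-in cells ICAM5 rose with treatment (1.19, edgeR adjusted p = 0.00769), and was 0.06 with the trend removed and 0.65 under spike-in scaling, neither called. That rise was also not called without untreated or treated knock-in library 2 (edgeR adjusted p = 0.065 and 0.0564) or without both (0.80, 0.224). ICAM4 was at only 0.14 to 1.48 CPM over all libraries. At these low levels its response was 1.91 in wild-type (edgeR adjusted p = 0.0791, not called) and 2.15 in knock-in cells (0.0427, called). CD58, another adhesion ligand of T cells, fell in wild-type (−1.50, edgeR adjusted p = 0.00267) and knock-in cells (−1.95, 0.000441). With the trend removed it was at −0.48 (not called) and −0.73 (edgeR adjusted p = 0.0468). Moesin (MSN), which links membrane proteins to actin, rose (0.90, edgeR adjusted p = 0.000923, and 0.93, 0.000378), and was 0.09 and 0.40 and not called under spike-in scaling. Radixin (RDX) fell in wild-type (−0.57, edgeR adjusted p = 0.0204) and knock-in cells (−0.81, 0.00239). Both calls were lost with the trend removed (−0.20 and −0.28), the wild-type one also with only the groups compared and without untreated wild-type library 2 or either treated wild-type library, and the knock-in one without the libraries with plasma cell transcripts (−0.75, 0.084). ITGB2 and VCAM1 were at 0 to 0.153 CPM. On the CXCR1 and CXCR2 list only 3 of 7 genes passed the filter, CXCL2 and CXCL3 among them.

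IRF1, a reference gene of the IFN-γ response, rose from 13.61 and 10.32 to 336.6 and 361.1 CPM in wild-type and from 11.31 and 11.41 to 352.3 and 335.6 CPM in knock-in cells. Its rise was 4.86 in wild-type (edgeR adjusted p = 9.82e-07) and 4.92 in knock-in cells (9.62e-07). Between the lines IRF1 was at −0.08 untreated (edgeR adjusted p = 0.799) and −0.02 with IFN-γ (0.973), and neither value passed the test.

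The genes whose levels tracked ICAM1 most closely over the 8 libraries, of 10877 compared by Pearson correlation of log2 CPM, were C1R (0.9856), ATG13 (0.9848), USF1 (0.9831), PEAK1 (0.9823) and MACF1 (0.9818). C1R, the complement protease, was at 1.38 and 0.95 CPM untreated and 9.99 and 7.59 CPM treated in wild-type cells, and at 3.01 and 1.93 CPM untreated and 19.82 and 18.11 CPM treated in knock-in cells, the same order of groups as ICAM1. For CXCL8 they were RGPD5 (0.9685), HYKK (0.9668), EREG (0.9505), SNX24 (0.9471) and RNF170 (0.9388). EREG, the epidermal growth factor receptor ligand epiregulin, ranged from 533.9 CPM in a treated to 816.9 CPM in an untreated knock-in library. The 8 libraries fall into 4 groups and 4 of them are treated, so these correlations are descriptions of few separate points.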

How the data were processed

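RNA of 8 rRNA-depleted libraries was sequenced by the authors, and the submitters' processing notes name Trimmomatic, kallisto and GRCh38. Tool versions, annotation, strandedness and spike-in amounts were not given in the sources used here. Estimated counts, as the authors deposited them, cover 40295 Ensembl gene identifiers and 63 ERCC spike-ins, without normalization, and every column name matched 1 library. Symbols, coordinates, transcript length and GC content came from GENCODE release 29, which named 35583 identifiers.

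Estimated counts were rounded and spike-ins left out of the tests. The filter was edgeR's filterByExpr (minimum count 10), which left 16519, including 9 of the 10 members. TMM factors were 0.86 to 1.134. The quasi-likelihood F test of edgeR 4.0.16 (R 4.3.3) was run on a model of the 4 group means over all 8 libraries, and p-values were adjusted by Benjamini-Hochberg over the 16519 genes with a threshold of 0.05. The common dispersion was 0.0415, which is 20.4% as a coefficient of variation. The same libraries enter several contrasts. A standard error is the absolute log2 fold change over the root of F. Precision is limited by 2 replicates per group. Each p-value sets a difference against a spread estimated from all 8 libraries, with information shared across genes. The fit was checked on simulated counts with planted changes.

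The members and gene lists were chosen with earlier results of these data known. Named genes were the members, RELA, REL, CXCL2, CXCL3, IRF1 and a gene that is not reported here, and per list and pairwise contrast the 3 called genes with the largest change and a mean level from 5 CPM up in a compared group. The 5 closest patterns to ICAM1 and CXCL8 were taken among genes with a mean of at least 5 CPM, on log2 CPM with a prior count of 2. Alternatives were DESeq2 size factors, upper-quartile factors, spike-in scaling, DESeq2 1.42.0, limma-voom (limma 3.58.1), no filter, a minimum of 50 counts in 2 libraries, the replicate block, only the groups compared, a GC and length correction (loess trend of each library with span 0.3, where 92.4% of tested genes had a GC value), exclusion of the knock-in libraries with plasma cell transcripts, and each library left out in turn. RefSeq promoter sequences are from GRCh38.p14. RELB had no promoter entry.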

Additional observations from a re-analysis of the deposited data

How the results depend on the processing

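ICAM1 kept its direction and its call in both responses and both line differences under every alternative fitted. The following holds for named genes whose response was called in the reported fit. Spike-in scaling turned the wild-type responses of the members NFKB1 to −0.37 and NFKB2 to −0.08, and of 2 pathway genes outside the members, TNFAIP2 to −0.10 and TNFRSF1A to −0.23. Removal of the GC and length trend turned the wild-type response of TNFAIP2 to −0.01 and the knock-in response of CXCL8 to 0.04. Responses not called in the reported fit could turn as well. With the trend removed BIRC3 went from −0.49 to 0.16 in wild-type and from −0.76 to 0.19 in knock-in cells. The cause was not tested. Genes called higher and lower went from 2821 and 3435 to 233 and 6745 under spike-in scaling in the wild-type response, from 4356 and 4257 to 616 and 5476 in the knock-in response, and from 703 and 689 to 150 and 517 in the untreated line difference (667 in all; 195 with IFN-γ). Members called were then 3 in the knock-in response and 1 in the untreated line difference. Trend removal gave 3950, 4902, 2513 and 1346 called genes in the 2 responses and the untreated and treated line differences, and 1, 2 and 4 called members in the first 3. Without the libraries with plasma cell transcripts, 3562 genes and 2 members were called in the knock-in response and 113 genes and 2 members in the treated line difference.

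DESeq2 called 2291, 888 and 4 genes in the untreated line difference, the treated one and the difference between responses, and the fit without a filter 2959, 1227 and 267. Called members were 4 in the untreated line difference without a filter, 1 with limma-voom, and 2 in the treated one with DESeq2 or no filter. The fit without a filter also tested CXCL1, so its member counts are of 10. With only the groups compared, 514 and 2226 genes were called in the untreated and treated line differences, and 2, 1 and 2 members in the wild-type response and those line differences. With each library left out in turn, called genes were 3336 to 7828 and 6360 to 9372 in the wild-type and knock-in responses, 400 to 4879 and 143 to 1120 in the untreated and treated line differences, and 0 to 2 for the difference between responses. Called members were 1 to 4, 3 to 5, 1 to 4, 1 to 2 and 0 to 0 in that order; a group left with 1 library is assumed to vary like the others.

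The log2 CPM difference between libraries 1 and 2 of each group was correlated between groups over the tested genes. The correlation was 0.004 to 0.079 in 5 of 6 group pairs, so across the 4 groups the numbers were not taken to pair the libraries. Between the knock-in groups the correlation was 0.2591, and both libraries numbered 2 of that line held plasma cell transcripts, so a shared source within that line was not tested. With the replicate number as a block, 2 members were called in the treated line difference, BIRC3 at −1.25 being added (edgeR adjusted p = 0.0409). BIRC3 was also called in the knock-in response (−0.83, 0.0258) and NFKB1 in the untreated line difference (−0.55, 0.0352). Every member call other than those of ICAM1 was lost under at least 1 alternative, and at the 0 to 12 counts of CXCL1 no difference was detectable.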
